A study of Mus musculus with 12 samples.

Results

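Agilent's mouse design carries 16194 probes that are named by a genomic interval and a strand letter, with no gene symbol or transcript accession, and 5506 of them were followed here in macrophages. They were chosen by the scanner software's detection flag: a probe was included where every array of some group (3 of 3, in 1 or more of the 4 groups) had its spot well above background. The same rule kept 28044 of the 55681 non-control probes of any kind. The 5506 probes lay in 2198 loci, of 3543 on the array, and made 2692 locus-and-strand names, of 4610. No probe name contains the word lincRNA, and every included name begins with a chromosome. Whether the loci are intergenic in a gene annotation was not checked, because the coordinates are on mm9 and no annotation of that build was used here. Detection chose the probes, so their detection is described and not tested.

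The 12 arrays, each hybridised with Cy3-labelled RNA of 1 sample, made 4 groups of 3. They were bone marrow-derived macrophages of ERRα+/+ and of ERRα-/- mice, and the cells of each genotype were given PBS or LPS. All mice were male C57BL6 aged 6 to 8 weeks, and all cells had been grown with macrophage colony-stimulating factor. LPS was used at 100 ng/mL, and how long it was applied was not stated in the labels. Replicate 1 of every group was on slide 1 (4 arrays) and replicates 2 and 3 were on slide 2 (8 arrays). The labels do not say whether replicates are separate mice or cultures, so p-values measure the spread between these samples, which may be technical.

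Long intergenic noncoding RNAs are spliced or unspliced transcripts made between protein-coding genes and carrying no long reading frame. Many are made in a few cell types only, some act near their own locus and others are by-products of active enhancers, which are often transcribed on both strands. In macrophages, LPS, a component of the bacterial outer membrane, is sensed by Toll-like receptor 4 and switches on NF-kB and interferon programmes that include noncoding transcripts. ERRα, the product of Esrra, is an orphan nuclear receptor known for controlling mitochondrial and oxidative metabolism genes.

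All levels are log2 of the processed signal minus the 75th percentile of the array, and a difference of 1 on this scale is a doubling. The 75th percentile of the signal was 288.8 to 609.8, each array detected 45.35% to 56.7% of its probes, and no spot was saturated. Only 3 arrays a group limit the precision. Replicate spots varied by 3.79% to 4.65% on 10 arrays, by 12.43% on ERRα+/+ PBS replicate 2 and by 8.186% on ERRα+/+ PBS replicate 3. Esrra stood at 4.54, 4.39 and 4.68 in ERRα+/+ PBS and 5.87, 6.25 and 6.36 in ERRα+/+ LPS cells, and at 2.48, 0.25 and 0.15 in ERRα-/- PBS and 4.40, 3.92 and 3.83 in ERRα-/- LPS cells. Its difference in ERRα-/- cells averaged -2.84 ± 0.36 (limma adjusted p = 0.00514). It rose with LPS by 1.62 and 3.09 in ERRα+/+ and ERRα-/- cells, and among the ERRα-/- PBS arrays replicate 1 was the highest. Its probe was detected on all 12 arrays, and whether it lies in the deleted part was not stated in the labels. Tnf, Il6, Il1b, Ptgs2 and Nos2, inflammatory genes that LPS is known to induce, rose in both genotypes. All 7 macrophage markers on the array were detected on all 12 arrays, with a summed linear level of 820 to 1434 in ERRα+/+ and 1116 to 1575 in ERRα-/- cells under PBS, and 1527 to 1817 and 1601 to 2004 under LPS. Among 4 dendritic markers, Zbtb46 rose with LPS by a fitted 6.25 and Siglech by 1.28 in ERRα+/+ cells, and Xcr1 was above background on no array. Zbtb46 was above background on only 1 of 3 PBS arrays in each genotype. Flt3 was not called, with LPS differences of -0.10 in ERRα+/+ and -0.11 in ERRα-/- cells. The summed linear level of the 3 dendritic markers measured on every array was 0.112 to 0.232 in ERRα+/+ and 0.128 to 0.202 in ERRα-/- cells under PBS. Under LPS it was 2.16 to 3.43 and 2.62 to 2.98. Zbtb46 made up most of the sum under LPS, with mean levels of 1.35 and 1.42, beside -3.27 and -3.12 for Flt3. Siglech, by far the brightest of the 4, is not in this sum, because it had no value on ERRα+/+ PBS replicate 3. Its mean level was 6.85 under PBS and 8.13 under LPS in ERRα+/+ cells, and 7.86 and 8.26 in ERRα-/- cells. Of 4 neutrophil markers Mpo fell by 2.61 in ERRα+/+ cells, and the summed linear level of the 4 was 269 to 383 under PBS and 237 to 465 under LPS in those cells. The same sum in ERRα-/- cells was 210 to 257 under PBS and 289 to 441 under LPS. Sums for stromal, lymphocyte and erythroid markers are given beside the genotype results. The part of these cell types in the results was not tested, and in such bulk samples fewer cells of a type cannot be told apart from less RNA per cell.

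Locus-named probes were dim. Their median level was -2.22, against -0.06 over all 28044 probes tested. Of the 5506 probes, 3466 were detected on all 12 arrays, 418 in both PBS groups only and 173 in both LPS groups only. The ERRα+/+ PBS group alone accounted for 402, the ERRα-/- LPS group for 157, the ERRα+/+ LPS group for 84 and the ERRα-/- PBS group for 74. A group needs all 3 arrays, so its array with the fewest detected probes limits its count. That array detected 33.38% of the locus-named probes in ERRα+/+ PBS, 31.23% in ERRα-/- LPS, 27.84% in ERRα+/+ LPS and 29.13% in ERRα-/- PBS. The part of single arrays in these counts was not tested, and the like counts over all probes are not given. Detection on the array as a whole was 34% for locus-named probes, 63.46% for probes with a RefSeq mRNA accession and 35.79% for those with a RefSeq noncoding accession. By chromosome, the share of locus-named probes detected ran from 23.78% on chromosome 9 to 43.14% on chromosome 17. Loci with a detected probe had a median length of 10326 bases, those without one 2952 bases. The letters F and R, read here as the strand although the files do not define them, ended the names of 2603 and 2898 probes.

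The detection threshold was close for some probes. The 3 dimmest that passed had a highest group mean of -4.52, -4.43 and -4.4. The first of these, A_30_P01019747 of chr19:4209657-4210475_R, stood at -4.87, -4.57 and -4.12 on the ERRα+/+ PBS arrays and was well above background on 4 of 12 arrays. Among the 10688 that did not pass, 6576 were above background on no array and 1400 on 2 of 3 arrays of a group. The brightest of them could be carried by single arrays: A_30_P01032871 of chr8:56200419-56205756_F stood at 9.99 on ERRα+/+ PBS replicate 1 and between -6.93 and -4.18 on the other 11 arrays. The probe A_30_P01028912 of chr16:46384974-46391331_R likewise stood at 9.11 on that array only. A_30_P01023066 of chr5:15033568-15033987_F stood at -4.76 or lower on the 4 arrays of slide 1 and at -0.94 or higher on the 8 arrays of slide 2.

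More of these transcripts rose than fell with LPS in both genotypes. In ERRα+/+ cells 990 of 5506 probes rose and 815 fell, 32.8% in all, beside 39.9% of all probes tested (20.6% rising, 19.3% falling). In ERRα-/- cells 1188 rose and 832 fell, 36.7% in all, beside 43.8% (23.3% rising, 20.5% falling). Normexp background correction gave 1321 rises and 452 falls in ERRα-/- cells. The shares of locus-named probes were thus below those of the array in both genotypes. In ERRα+/+ cells the median difference was 0.11 over the locus-named probes, beside 0.08 over all probes. The ERRα-/- medians were 0.21 and 0.12. Calls are at a limma adjusted p under 0.05, with Benjamini-Hochberg adjustment over all 28044 probes.

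A probe that passed through the groups of a single treatment was admitted on its level there, so the 3466 probes above background on all 12 arrays are given too. Of these, 681 rose and 388 fell in ERRα+/+ cells (30.8%, beside 39.3% of all probes with that detection, 21.9% rising and 17.4% falling). In ERRα-/- cells 814 rose and 396 fell (34.9%, beside 43.3%, 24.6% rising and 18.7% falling). Arrays of the same slide resembled each other across groups. With the replicate number as a block 2550 and 2793 of the 5506 probes were called, within 1.5 times of the counts without it. Of all probes tested, 53.9% and 57.1% were called with that block. On slide 2 alone, with 2 arrays a group, 2878 and 3209 of the 5506 were called, beside 63.8% and 65.8% of all probes tested. Slide 1 holds 1 array of each group, so it gives no test, and its LPS differences were smaller, with a median ratio to those of slide 2 of 0.6198 in ERRα+/+ and 0.6324 in ERRα-/- cells over the called probes.

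Most responses were called in the same direction in both genotypes. Of the probes called, 829 rose in both, 662 fell in both and none was called in opposite directions in the limma fit. The 829 were 83.74% of those that rose in ERRα+/+ cells and 69.78% of those that rose in ERRα-/- cells. The 662 were 81.23% and 79.57% of the falling lists. The like shares over all probes tested are not given, so whether this sharing is particular to locus-named probes cannot be told from them. Across the 5506 probes, which share arrays and are not independent, the differences in the genotypes correlated with a Pearson r of 0.932 and a Spearman rho of 0.877, and over all probes tested r was 0.948. Differences above 3 were called for 123 probes in ERRα+/+ and 105 in ERRα-/- cells, and differences below -3 for 37 and 41. The rises were 2.234% and 1.907% of the locus-named probes, beside 2.614% and 2.649% of all probes tested, and the falls 0.672% and 0.7446%, beside 1.095% and 1.309%.

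**Figure D1:**
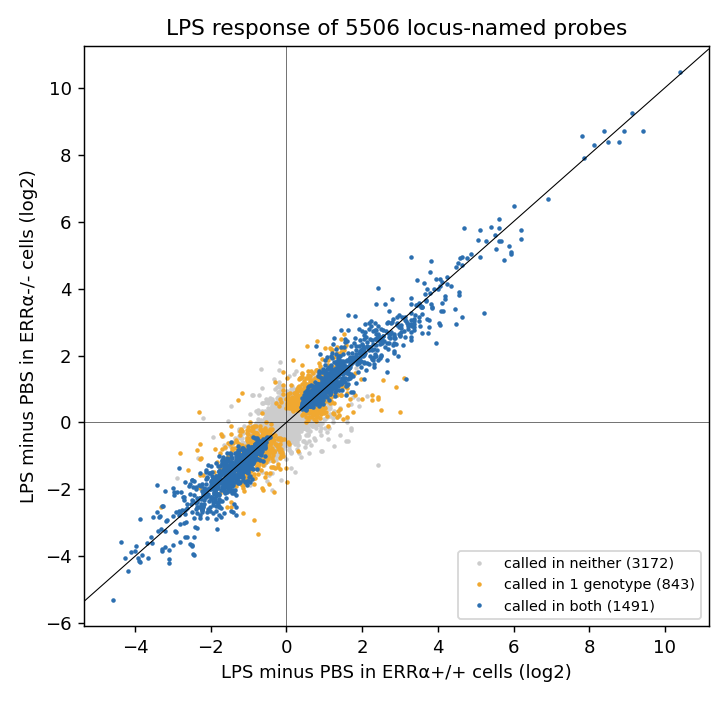
LPS minus PBS on the log2 scale in ERRα+/+ cells (horizontal axis) and ERRα-/- cells (vertical axis) for each of the 5506 locus-named probes, coloured by whether the probe was called in neither genotype, in 1 or in both, with the line of equal response. The probes called in both lie along the line from -4.59 to 10.4 on the horizontal axis, and none of them lies at the upper left or lower right.

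The strongest LPS response came from a single stretch of chromosome 16, chr16:84702353-84710928, where 5 overlapping names hold 13 probes. All 13 rose in both genotypes, with a median fitted difference of 8.12 in ERRα+/+ and 8.37 in ERRα-/- cells. No PBS array was above background for 9 probes in ERRα+/+ and 7 in ERRα-/- cells, and with these set at their lower bounds the medians were 6.72 and 7.05. Probe A_30_P01032196, at chr16:84708695-84708806_F, stood at -4.11, -5.13 and -4.99 on the ERRα+/+ PBS arrays and at 4.81, 6.08 and 6.08 on the LPS arrays. In ERRα-/- cells it stood at -2.80, -5.08 and -5.83 under PBS and at 5.13, 6.24 and 6.31 under LPS. The treatments did not overlap in either genotype. The differences were 10.40 ± 0.70 (SE, n = 3 arrays a group; limma adjusted p = 3.84e-06) and 10.46 ± 0.70 (limma adjusted p = 4.37e-06), with only 1 of 3 arrays above background in each PBS group. The probe passed the detection rule through the LPS groups, where it is high, so its p-values are no independent support.

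Both strand letters of this stretch responded. The R probe A_30_P01017643 rose by a fitted 9.42 ± 0.45 in ERRα+/+ and 8.71 ± 0.45 in ERRα-/- cells, with only 1 and 2 of 3 PBS arrays above background. The LPS groups, where this probe is high, admitted it, so its calls are no independent support. It stood at -4.66, -5.29 and -4.91 under PBS and at 3.43, 5.09 and 4.88 under LPS in ERRα+/+ cells. The replicate 1 array was the lowest of the LPS arrays for both probes. Where no array of the PBS group was above background, a fold is a lower bound, taken from the mean of the LPS arrays against the higher of the dim probe's own level and the lowest level measured above background on each PBS array. In ERRα+/+ cells the R probe A_30_P01020928 was at least 440.6-fold higher and A_30_P01018526 at least 360.6-fold higher. The F probes A_30_P01033227, A_30_P01028475 and A_30_P01033281 were at least 119.3-, 109.6- and 105.6-fold higher in ERRα+/+ cells. In ERRα-/- cells those bounds were 146-, 133.8- and 132.4-fold. The response was uneven within the stretch, since 3 R probes of chr16:84708005-84708675 rose by 0.83 to 3.66 in ERRα+/+ cells.

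Outside this stretch, the largest rise was of A_30_P01029335 at chr17:64063362-64066067_R. It stood at -7.45, -5.78 and -5.46 on the ERRα+/+ PBS arrays and at 2.45, 3.29 and 2.96 on the LPS arrays. The ERRα-/- values were -5.24, -7.35 and -6.01 under PBS and 2.91, 3.19 and 2.98 under LPS. The treatments were well apart in both genotypes. No PBS array was above background, and the rise was at least 221.9-fold in ERRα+/+ and at least 265.8-fold in ERRα-/- cells. The probe was admitted by the LPS groups alone, so no p-value is given in its support.

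**Figure D2:**
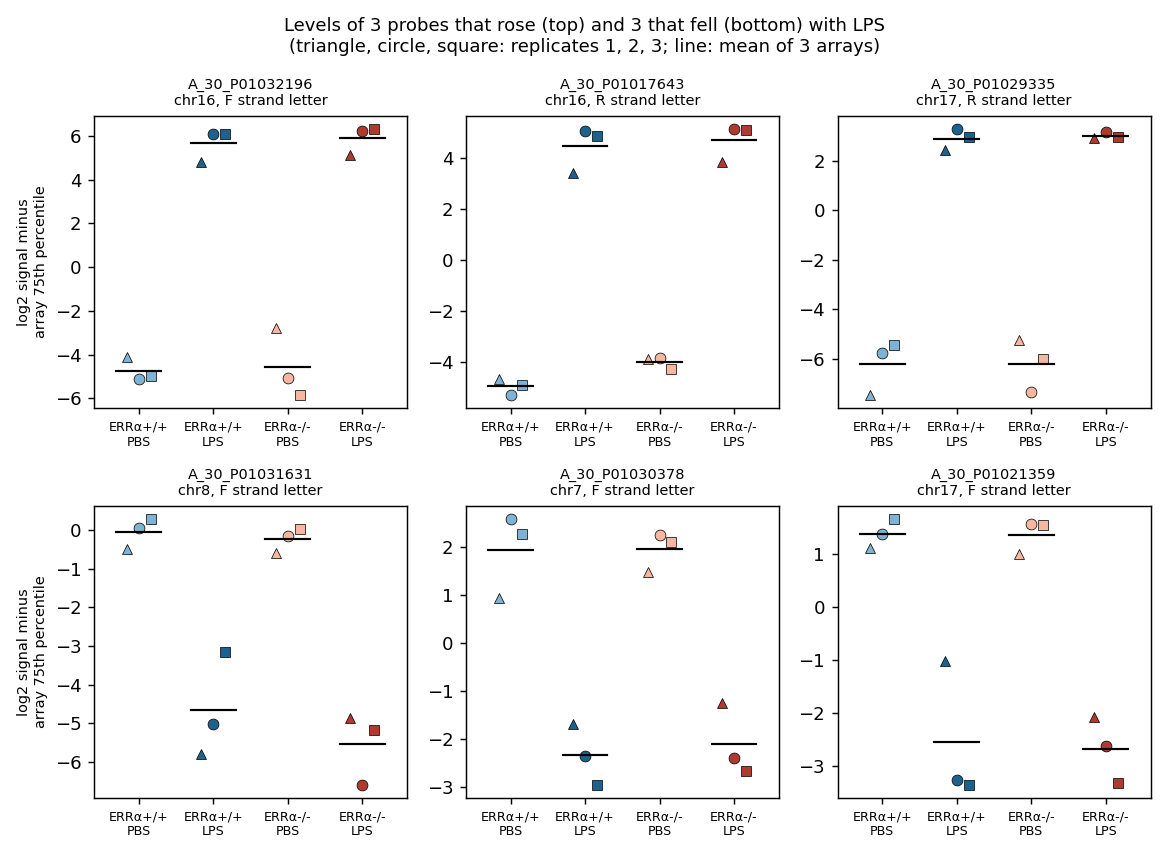
Level (log2 signal minus the 75th percentile of the array, own vertical axis per panel) of 6 probes on each of the 12 arrays by group, with a line at the mean of the 3 arrays. In the top row A_30_P01032196, A_30_P01017643 and A_30_P01029335 are higher on every LPS array than on any PBS array; in the bottom row A_30_P01031631, A_30_P01030378 and A_30_P01021359 are lower on every LPS array than on any PBS array.

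In a few stretches of neighbouring loci every probe responded. Loci lying within 100 kb of each other were joined, a step chosen after values had been seen, which gave 1201 domains, 416 of them with at least 5 probes. In 9 of the 416 every probe rose in both genotypes and in 4 every probe fell in both. In ERRα+/+ cells no PBS array was above background for 9 of 13 probes at chr16:84702353, 6 of 19 at chr2:127988295, 4 of 9 at chr6:57560819 and 3 of 5 at chr17:13185488. No LPS array was for 2 of 5 falling probes at chr17:87674225. The groups where such probes are dim did not admit them, so their calls are no independent support. Neighbouring names can overlap on the genome, so their probes can read the same transcript and are not independent.

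The longest of the uniformly rising domains was chr2:127988295-128250301, which spans 262 kb. All 19 of its probes rose, with medians of 4.65 in ERRα+/+ and 4.92 in ERRα-/- cells, or 4.53 and 4.69 with the 6 and 4 probes that lacked a PBS array above background at their bounds. Probe A_30_P01028201 of chr2:128249388-128250301_F stood at -5.69, -5.96 and -6.12 under PBS and at -0.45, 0.78 and 0.51 under LPS in ERRα+/+ cells, at least 36.14-fold higher. The 4 probes of the longest name, chr2:127988295-128194920_R, rose less, by 1.29 to 2.56. Morrbid, a noncoding RNA gene on chromosome 2 known for controlling the lifespan of short-lived myeloid cells, has its own named probe on the array, which was at least 21.5-fold higher with LPS in ERRα+/+ cells, where no PBS array was above background, and rose by 5.02 ± 0.75 in ERRα-/- cells. Whether that gene overlaps the domain was not checked, because the gene table is on another build.

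On chromosome 6, the stretch chr6:57560819-57624216 had 9 probes that all rose, with medians of 4.20 and 3.77 (4.08 and 3.77 at the bounds of 4 and 3 probes). Its 3 probes at chr6:57560819-57569928_F were above background on no PBS array of either genotype. The brightest of the others, A_30_P01025357 of chr6:57583950-57624216_F, was above background on every array and went from -0.14, -0.82 and 0.09 under PBS to 3.37, 4.85 and 4.61 under LPS in ERRα+/+ cells. That was a rise of 4.57 ± 0.41 (limma adjusted p = 2.24e-05). In chr11:119250824-119296960 all 9 probes rose, with medians of 3.30 and 2.87 and with F and R probes in a like range (2.98 to 3.37 for F and 3.02 to 4.14 for R in ERRα+/+ cells).

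The other uniformly rising domains were chr16:93121505-93142255 (5 probes, medians 2.67 and 2.37), chr1:87343550-87419385 (5 probes, 2.50 and 2.08), chr17:13185488-13236900 (5 probes, 1.37 and 1.62 with 3 at their bounds in each genotype), chr10:6480075-6603900 (10 probes, 1.56 and 2.06, or 1.75 in ERRα-/- cells with 3 at their bounds) and chr4:40840725-40860875 (6 probes, 0.85 and 0.92). The largest domain that rose nearly throughout was chr1:175653557-175717250. There 25 of 26 probes rose in ERRα+/+ and 26 of 26 in ERRα-/- cells. Its R name chr1:175705225-175717250_R was well above background under PBS already. Probe A_30_P01022549 of that name went from 1.46, 1.57 and 1.82 to 4.75, 5.84 and 5.73 in ERRα+/+ cells, a rise of 3.82 ± 0.39 (limma adjusted p = 5.06e-05).

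**Figure D3:**
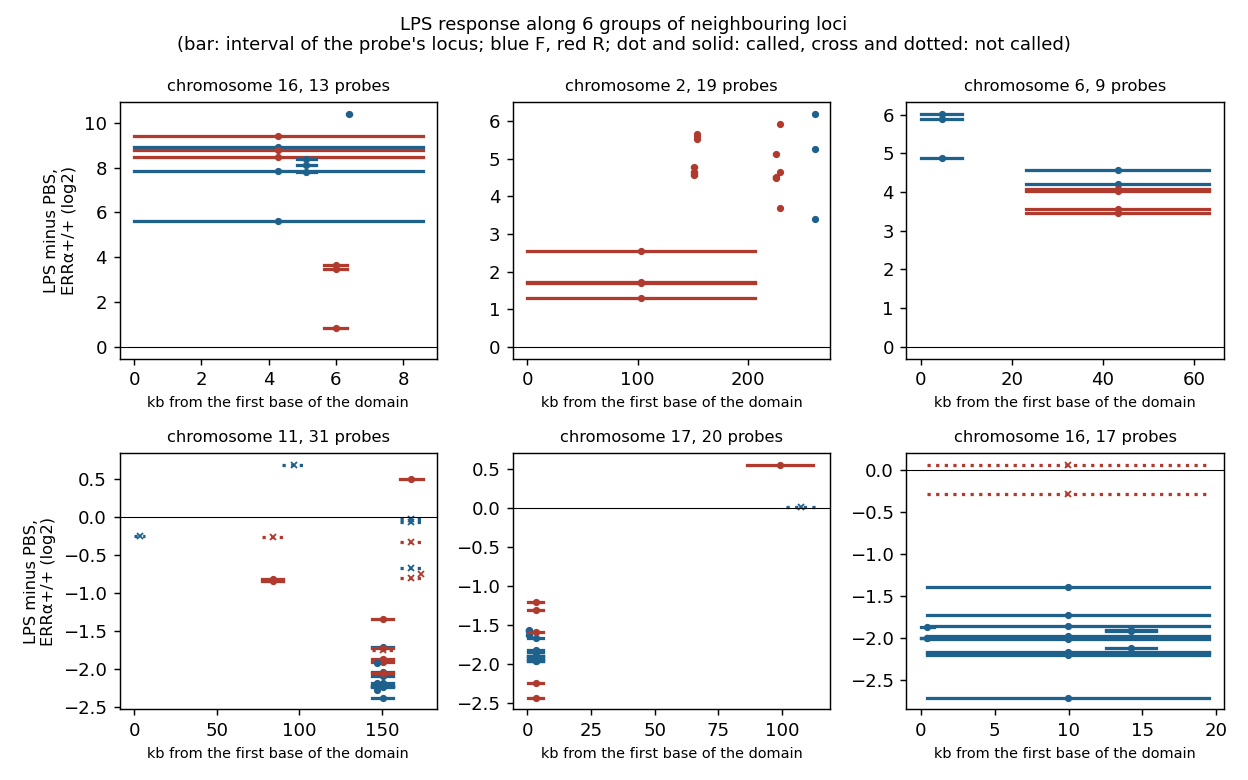
LPS minus PBS in ERRα+/+ cells (log2, vertical axis) against the distance in kb from the first base of the domain for 6 domains of neighbouring loci; each bar spans the interval of the probe's locus, blue for F and red for R, with a dot and a solid bar where called and a cross and a dotted bar where not. In the top row all 13, 19 and 9 probes lie above 0; in the bottom row the called falls are 19 of 31, 18 of 20 and 15 of 17 probes, and the 2 R probes of the chromosome 16 domain lie near 0.

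The largest fitted falls, -4.59 in ERRα+/+ and -5.30 in ERRα-/- cells, were smaller than the largest fitted rises of 10.40 and 10.46. In each case at most 1 of 3 arrays of the dim group was above background, so these are not measured folds. Background also limits how far a dim probe can be seen to fall. Among called probes, 599 of 815 falls were below -1 and 580 of 990 rises above 1 in ERRα+/+ cells, and 620 of 832 falls and 648 of 1188 rises in ERRα-/- cells. The like shares over all probes tested are not given at this size, so these counts do not mark out locus-named probes. Probe A_30_P01031631 of chr8:85609155-85615170_F stood at -0.50, 0.05 and 0.29 on the ERRα+/+ PBS arrays and at -5.78, -5.02 and -3.14 on the LPS arrays. In ERRα-/- cells it stood at -0.58, -0.14 and 0.02 under PBS and at -4.87, -6.58 and -5.16 under LPS. The fall was -4.59 ± 0.62 in ERRα+/+ cells (limma adjusted p = 0.000281), with 1 of 3 LPS arrays above background, and at least 15.13-fold in ERRα-/- cells, with none. The PBS groups, where it is high, admitted this probe.

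The short locus chr7:16633756-16634410_F gave falls that were measured on both sides. Its 3 named probes were above background on all 12 arrays. A_30_P01030378 went from 0.95, 2.59 and 2.28 under PBS to -1.67, -2.35 and -2.94 under LPS in ERRα+/+ cells. In ERRα-/- cells it went from 1.49, 2.26 and 2.11 to -1.24, -2.39 and -2.65. The differences of A_30_P01030378, A_30_P01022977 and A_30_P01019086 were -4.26, -4.17 and -3.89 in ERRα+/+ cells. Their ERRα-/- differences were -4.05, -4.43 and -4.14. For A_30_P01030378 the arrays of replicate 1 showed the smallest change in both genotypes.

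Other large falls were at chr17:71183978-71185384_F, where A_30_P01021359 differed by -3.93 ± 0.55 in ERRα+/+ and -4.05 ± 0.55 in ERRα-/- cells. At chr11:112905201-113062945_R the probe A_30_P01023065 was at least 6.8-fold lower in ERRα+/+ and at least 6.828-fold lower in ERRα-/- cells. At chr3:21964899-21974524_R the probe A_30_P01018336 was at least 4.702-fold and at least 3.526-fold lower. In the overlapping names chr13:94182877-94203935_R and chr13:94200051-94200598_R, A_30_P01028309 differed by -3.10 and -4.09 and A_30_P01026761 by -3.11 and -4.21 in ERRα+/+ and ERRα-/- cells. A_30_P01026761 was above background on only 2 of 3 ERRα+/+ LPS and 1 of 3 ERRα-/- LPS arrays, and the PBS groups, where it is high, admitted it. The difference between the genotypes did not pass the test for A_30_P01028309 and A_30_P01026761, with interaction values of -0.99 and -1.10 (limma adjusted p = 0.9999 for each).

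Domains that fell throughout were chr17:87674225-87682154 (5 probes, medians of -1.46 in ERRα+/+ and -1.73 in ERRα-/- cells with 2 and 1 at their bounds), chr6:99472981-99484210 (5 probes, -1.43 and, with 2 at their bounds, -1.74), chr4:11893711-11931875 (8 probes, -1.40 and, with 2 at their bounds, -1.29) and chr12:45415565-45423519 (6 probes, -1.05 and, with 2 at their bounds, -0.96). In larger domains the fall was limited to some names. In chr11:95483973-95658549, 19 of 31 probes fell in ERRα+/+ cells, 17 of them in the overlapping names chr11:95627874-95640824_F, chr11:95627874-95640824_R and chr11:95630200-95631470_F. Probe A_30_P01031417 there went from 2.47, 3.23 and 3.18 to 1.33, 0.25 and 0.18. In chr17:26911032-27024356 the 18 falling probes were all of the names between 26911032 and 26917047, on both strand letters. In chr16:43623175-43642715 all 15 F probes fell, by 1.39 to 2.71, while the 2 R probes differed by -0.28 and 0.07 in ERRα+/+ cells.

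Among 1360 names with at least 2 included probes, 687 had a called probe in ERRα+/+ cells. Of the 1360, 112 had every probe rising and 118 every probe falling in ERRα+/+ cells, 446 had a called and an uncalled probe, and 21 had probes called in opposite directions. Uniform calls were thus fewer than mixed ones. The standard deviation of the difference over the probes of a name had a median of 0.26, beside 1.17 over all 5506 probes. Across these 1360 names the differences of the first 2 probes correlated with a Pearson r of 0.771, a description over probes that share arrays.

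Of 1067 loci with probes to both strand letters, 494 had included probes on both, 423 on 1 only and 150 on neither. Across the 494, the mean LPS difference of F and R probes in ERRα+/+ cells correlated with a Pearson r of 0.30 and a Spearman rho of 0.177, again a description over loci that share arrays. Both strands held a rising probe at 50 loci and a falling probe at 13, calls were opposite only at 25, a single strand was called at 207 and none at 199. At chr10:69669025-69686275, chosen after its values were seen, 4 of 5 F probes fell with a mean of -1.34 while the single R probe rose by 6.90 in ERRα+/+ cells, and the means in ERRα-/- cells were -0.94 and 6.67. At chr15:73455424-73477275, likewise chosen, the F probe rose by 2.55 and 4 of 6 R probes fell with a mean of -1.59.

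**Figure D4:**
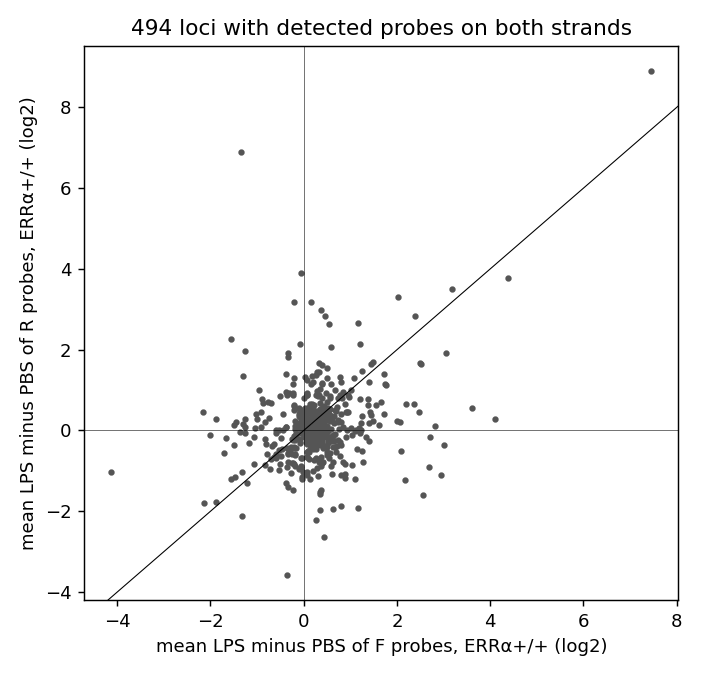
Mean LPS minus PBS difference in ERRα+/+ cells (log2) of the F probes (horizontal axis) and R probes (vertical axis) of 494 loci with included probes on both strand letters; each point is 1 locus and the line marks equality. Most points lie near 0 on both axes, the point at the upper right is the chromosome 16 stretch, and the point at -1.34 and 6.90 is the chromosome 10 locus.

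The brightest locus-named probes did not pass the LPS test in ERRα+/+ cells. The 6 with the highest mean level lay at chr17:17481706-17482457_R (2 probes), chr7:108209996-108216032_R, chr11:22681800-22707775_R, chr19:5801802-5802597_R and chr14:78924115-78938125_F. Their LPS differences in ERRα+/+ cells ran from -0.18 to 0.26. A_30_P01031448, of the chromosome 14 locus, rose by 0.48 in ERRα-/- cells (limma adjusted p = 0.0397), and the other 5 were not called. A_30_P01022075, the brightest, stood at 8.68, 8.75 and 8.90 under PBS and at 8.80, 8.86 and 9.02 under LPS. The ranges of the treatments overlap, although the LPS array was the higher in each same-numbered pair, 6 of 6 over both genotypes. With the replicate block the difference in ERRα+/+ cells did not pass either (limma adjusted p = 0.363). The direction of such small differences depends on the scaling, and 5 of these 6 probes changed sign under an alternative setting or with an array left out that is given among the limits; quantile normalization moved the median difference of all probes from 0.077 to -0.052 in ERRα+/+ and from 0.122 to -0.055 in ERRα-/- cells.

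Among bright loci read on both strands, chr5:96591892-96606467 rose on both. The F probe A_30_P01027478 went from 6.35, 6.20 and 6.83 to 7.35, 8.38 and 8.38 in ERRα+/+ cells, a rise of 1.58 ± 0.30 (limma adjusted p = 0.00228), and the R probe A_30_P01029977 rose by 0.90 ± 0.23 (limma adjusted p = 0.0105). At chr17:39960567-39992817 the R probe A_30_P01019912 rose by 1.02 ± 0.21 (limma adjusted p = 0.00347; 0.0563 after quantile normalization). The F probe A_30_P01023888 there differed by 0.02 ± 0.16, and its ERRα-/- PBS replicate 2 value was left out of the fit by an outlier flag. At chr12:119825125-119850750, chr7:108209996-108216032 and chr4:136856064-136877219 neither strand passed the test in ERRα+/+ cells without the replicate block, with differences from -0.04 to 0.58. With that block, the R probe A_30_P01029802 of the first locus passed (0.58, limma adjusted p = 0.0079). At the last locus the F probe A_30_P01023127 (0.44, limma adjusted p = 0.0215) and the R probe A_30_P01029358 (0.47, 0.00491) passed too. A_30_P01020276, A_30_P01031375 and A_30_P01030669 did not pass with it. In ERRα-/- cells both strands of chr4:136856064-136877219 rose without the block, by 0.67 (limma adjusted p = 0.0176) for F and 0.57 (0.0402) for R. The difference between genotypes there did not pass the test.

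Few of these transcripts passed the test for genotype. Averaged over PBS and LPS, 7 of 5506 probes were higher and 7 lower in ERRα-/- cells, 0.254%, beside 0.742% of all probes tested (0.257% higher, 0.485% lower). Among the 3466 probes detected on all 12 arrays 5 were higher and 2 lower, 0.202%, beside 0.677% of all probes with that detection (0.251% higher, 0.426% lower). Under PBS 4 were called, 3 higher and 1 lower, where 0.196% of all probes tested were called (0.0606% higher, 0.136% lower). Under LPS 1 was called, higher, where 0.125% of all probes tested were called (0.0891% higher, 0.0357% lower). Under PBS the summed linear level of 4 stromal markers was 4.13 to 8.55 in ERRα+/+ and 2.72 to 3.12 in ERRα-/- cells. Under LPS it was 3.4 to 6.13 and 1.86 to 3.93. The sum of 5 lymphocyte markers ran from 2.36 to 2.90 in ERRα+/+ and from 1.47 to 7.5 in ERRα-/- cells. For 3 erythroid markers, 2 of them above background on no array, the sum under PBS was 0.703 to 2.03 in ERRα+/+ and 0.264 to 0.524 in ERRα-/- cells. Under LPS the erythroid sum was 0.536 to 0.843 and 0.307 to 0.623. The part of these cells in the genotype results was not tested. The replicate block called 34 averaged, 8 under PBS and 13 under LPS, beside 2.08%, 0.71% and 0.513% of all probes tested. Slide 2 alone called 310, 151 and 189, beside 10.8%, 4.98% and 7.55%. Without any of the 8 arrays of replicates 2 and 3 the averaged count fell to between 6 and 9. The PBS count was 1 without ERRα+/+ PBS replicate 2, ERRα-/- PBS replicate 2 or ERRα-/- PBS replicate 3, 2 without ERRα+/+ PBS replicate 3, and 7 without ERRα+/+ PBS replicate 1. The LPS count was 0 without ERRα+/+ LPS replicate 2, ERRα+/+ LPS replicate 3 or ERRα-/- LPS replicate 2, 2 without ERRα+/+ PBS replicate 1, ERRα+/+ PBS replicate 2 or ERRα-/- PBS replicate 1, and 3 without ERRα-/- LPS replicate 1.

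The clearest genotype difference was at chr4:35106125-35127700_R. Probe A_30_P01027466 stood at -5.91, -6.04 and -4.67 in ERRα+/+ PBS and at -3.31, -6.68 and -5.73 in ERRα+/+ LPS cells. It stood at 2.90, 0.73 and 0.88 in ERRα-/- PBS and at 2.56, 1.11 and 1.23 in ERRα-/- LPS cells. No ERRα+/+ array came near any ERRα-/- array, and replicate 1 was the highest of each ERRα-/- group. The averaged difference was 6.96 ± 0.60 (limma adjusted p = 0.000689), higher in 6 of 6 same-numbered pairs, and under PBS it was at least 84.19-fold. The probe was above background on 1 of 6 ERRα+/+ arrays and was admitted by the ERRα-/- groups, so its p-values are no independent support. Only 2 of the 4 probes of that name were included, and the other, A_30_P01025594, differed by -0.27 (limma adjusted p = 0.862). The averaged call held with each array left out, whereas the call under PBS was lost without 2 of the 12 arrays (limma adjusted p up to 0.0935) and that under LPS without 4 (up to 0.0847).

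A further pair of probes was above background on all arrays and higher in ERRα-/- cells. A_30_P01019825 of chr15:79764481-79809909_F stood at -0.09, 0.31 and 0.16 in ERRα+/+ PBS and 0.63, 0.70 and 0.77 in ERRα+/+ LPS cells. The ERRα-/- values were 3.56, 2.64 and 2.42 under PBS and 3.37, 2.52 and 2.20 under LPS. The averaged difference was 2.37 ± 0.24 (limma adjusted p = 0.0018), and the other 3 included probes of the 10 of that name differed by -0.14 to 0.16. A_30_P01017437 of chr12:81221532-81232030_F stood at -1.39, -2.75 and -1.79 in ERRα+/+ PBS and 0.90, 0.46 and 0.51 in ERRα-/- PBS cells. Its averaged difference was 2.28 ± 0.22 (limma adjusted p = 0.00163), and the groups of the genotypes did not overlap.

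At chr3:45081952-45092352_F the probe A_30_P01026769 was above background on no ERRα+/+ array and was admitted by the ERRα-/- LPS group alone. It was at least 2.115-fold higher in ERRα-/- cells under LPS. Smaller rises in ERRα-/- cells were of A_30_P01029599 at chr10:84005221-84022896_R by 1.23 ± 0.22, of A_30_P01030678 at chr1:173250734-173259306_R by 0.81 ± 0.14 and of A_30_P01028451 at chr19:54011403-54019143_R by 0.58, which the naming rule leaves out and which completes the 7.

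The largest fall in ERRα-/- cells was of A_30_P01021912 at chr10:60473030-60535340_F. It stood at -3.19, -4.02 and -2.64 in ERRα+/+ PBS and at -5.33, -5.43 and -5.88 in ERRα-/- PBS cells. It was above background on all 6 ERRα+/+ arrays and on no ERRα-/- array, so the genotype where it is high admitted it. It was at least 3.332-fold lower under PBS and at least 2.03-fold lower under LPS. The other included probe of the 10 of that name differed by 0.01. Lower levels were also called for A_30_P01033518 at chr10:83181374-83249774_F (-1.37; at least 2.176-fold under PBS, with no ERRα-/- PBS array above background), A_30_P01021663 at chr5:77084398-77086144_R (-1.33; at least 1.72-fold under LPS, with no ERRα-/- LPS array above background), A_30_P01017550 at chr2:36112819-36114110_F (-1.18, above background on no LPS array of either genotype), A_30_P01022594 at chrX:90997595-91009570_R (-0.91), A_30_P01019010 at chr11:96111499-96126224_R (-0.84) and A_30_P01021929 at chr9:118291593-118324230_F (-0.83). The last was also the call below 0 under PBS, by -1.03 ± 0.16 (limma adjusted p = 0.0386). A_30_P01033518, A_30_P01021663, A_30_P01017550 and A_30_P01022594 were admitted by ERRα+/+ groups alone, where they are higher. Their calls are therefore no independent support.

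These 14 probes carried 14 different names. Of those names 8 held other included probes, none of which was called. With each array left out in turn, 5 of the 12 probes named by size stayed called throughout: A_30_P01027466, A_30_P01019825, A_30_P01017437, A_30_P01026769 and A_30_P01021912. Normexp background correction ended the calls of 8 of the 12, and took A_30_P01026769 to 0.36 (limma adjusted p = 0.624) and A_30_P01021912 to -0.67 (limma adjusted p = 0.14).

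**Figure D5:**
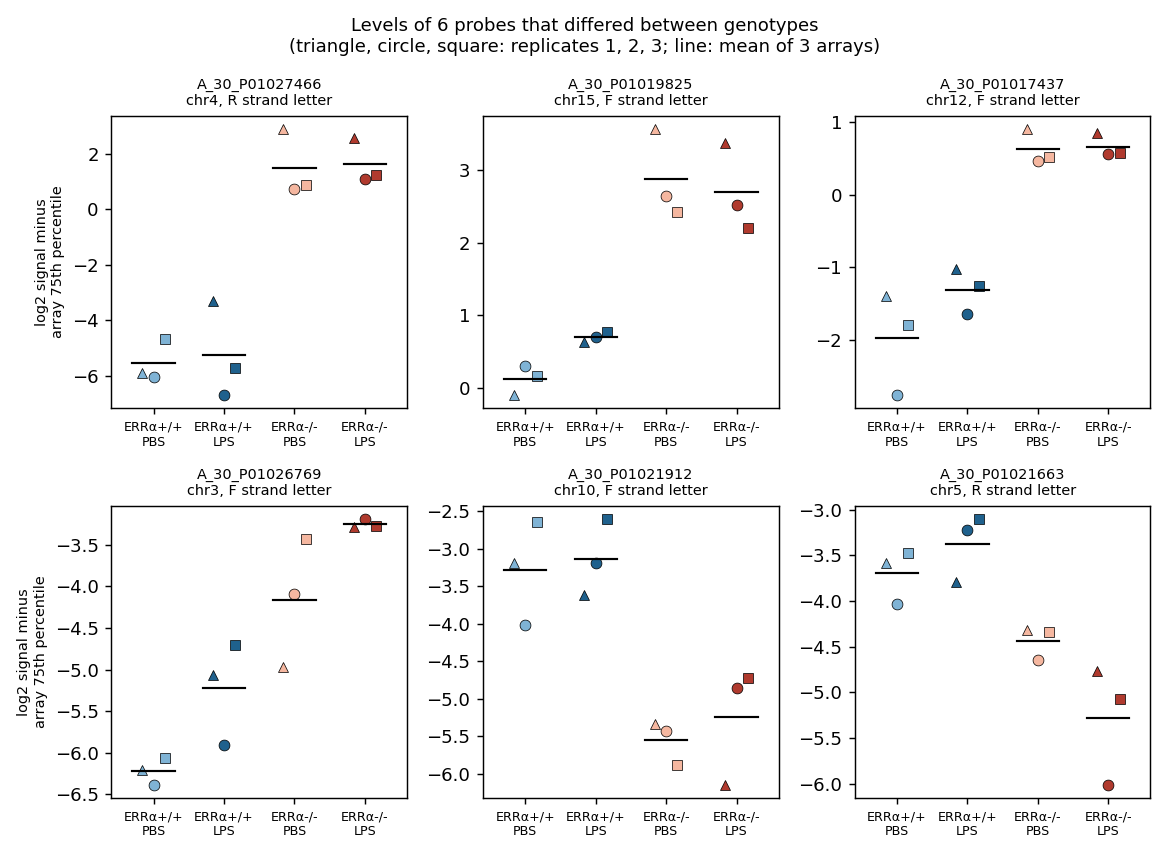
Level (log2 signal minus the 75th percentile of the array, own vertical axis per panel) on each of the 12 arrays of 6 probes called for genotype averaged over PBS and LPS, by group, with a line at the mean of the 3 arrays. The means of A_30_P01027466, A_30_P01019825, A_30_P01017437 and A_30_P01026769 are higher, and those of A_30_P01021912 and A_30_P01021663 lower, in ERRα-/- cells under both treatments; A_30_P01019825 ranges from -0.09 to 0.77 in ERRα+/+ and from 2.20 to 3.56 in ERRα-/- cells.

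No probe passed the limma test of a difference in LPS response between the genotypes. The number called was 0, beside 0% of all probes tested, and 106 of the 5506 had an unadjusted p under 0.05, or 1.925% beside 2.05% of all probes. Slide 2 alone called 7, beside 0.324% of all probes tested. The smallest p belonged to A_30_P01018740 at chr3:151746091-151753763_R, which rose by 0.78 ± 0.24 in ERRα+/+ and by 2.29 ± 0.24 in ERRα-/- cells. The interaction was 1.51 ± 0.34 (limma adjusted p = 0.9999 over 28044 probes; 0.0402 on slide 2 alone). The probe A_30_P01028770 at chr1:33965074-34060850_F rose by 3.17 ± 0.31 and 1.30 ± 0.31, an interaction of -1.88 ± 0.44 that did not pass the test (limma adjusted p = 0.9999). The other included probe of that name, A_30_P01031585, did not show this difference. Its fitted rises were 4.06 in ERRα+/+ and 4.09 in ERRα-/- cells, and no ERRα-/- PBS array was above background for it.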

How the data were processed

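The deposited intensities were processed signals of 1-colour Agilent arrays, 62976 spots each, which the authors' scanner software (Feature Extraction 11.5.1.1 per the file headers, 9.3.2.1 per the submitters' processing notes) had background-subtracted and detrended without scaling between arrays. Its flag for spots well above background was used per the file headers too. Locus names are on mm9, per the file headers.

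Control spots and outlier-flagged spots were left out and spots of a probe averaged. Levels are log2 of the intensity minus the 75th percentile of each array. The 28044 detected probes were fitted with limma 3.58.1 (R 4.3.3) over all 12 arrays, by lmFit and eBayes with 6 contrasts and Benjamini-Hochberg adjustment, and called at 0.05. ± is the SE of the fit. The script was tested on simulated data. Figures were drawn with Python 3.11.15 and matplotlib 3.10.9.

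Members and lists were chosen with earlier results of these data known. Probes named are the 10 largest rises and 8 largest falls with LPS that moved alike in 3 of 3 replicates in each genotype, up to 6 a direction for genotype, the 3 smallest p for the interaction, the 6 brightest, up to 5 bright loci with both strands, and 3 on either side of the detection rule. Domain examples, and probes named from them, were chosen after values were seen.

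Deviations from group means correlated by 0.12 to 0.75 over the 18 pairs of samples with the same replicate number, by 0.14 to 0.45 between numbers 2 and 3, which share slide 2, and by -0.64 to -0.17 across slides. Number 1 is slide 1, and within numbers 2 and 3 the values were 0.12 to 0.58 and 0.25 to 0.5. Sharing a number could thus not be told apart from sharing a slide. A fit with the number as a block was still run beside the unblocked one. Alternatives covered scaling, background correction, detection filters, slide, the replicate block, the variance trend, the deposited value table and each array left out.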

Additional observations from a re-analysis of the deposited data

Results flagged for a closer look

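For 2 named probes every ERRα+/+ replicate moved with LPS in 1 direction and every ERRα-/- replicate in the other, within the same replicate number. A_30_P01019825 of chr15:79764481-79809909_F moved by 0.72, 0.39 and 0.60 in ERRα+/+ and by -0.19, -0.12 and -0.22 in ERRα-/- cells, a difference of -0.75 in its LPS response. A_30_P01030419 of chr4:101010948-101032148_R moved by -0.61, -0.65 and -0.70 in ERRα+/+ and by 0.02, 0.52 and 0.30 in ERRα-/- cells, a difference of 0.93. Neither passed the limma interaction test (adjusted p = 1 for both). Among all 5506 locus-named probes 46 moved in opposite directions in this way, 0.835%, beside 0.91% of all probes tested.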

How the results depend on the processing

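Of 74 results for named probes, the deposited value table changed none, quantile normalization 9, normexp background correction 12 and no filter on dim probes 12 in direction or side of the threshold. With only probes detected on all 12 arrays, the LPS counts were 1111 in ERRα+/+ and 1264 in ERRα-/- cells and the averaged genotype count 8. The shares of all probes so fitted were 40.7%, 44.7% and 0.82%. Slide 2 alone gave 2878 and 3209 for LPS, 151 under PBS, 189 under LPS and 310 averaged for genotype, and 7 for the interaction. Of all probes it called 63.8% and 65.8% for LPS, 4.98%, 7.55% and 10.8% for genotype, and 0.324% for the interaction. The slide as a block gave 14, 22 and 49 for genotype under PBS, under LPS and averaged, beside 0.97%, 0.888% and 2.72% of all probes. The replicate block gave 8, 13 and 34, beside 0.71%, 0.513% and 2.08%, and moved no other count by over 1.5 times. Without a filter the genotype counts were 0, 0 and 6, beside 0.0126%, 0.0126% and 0.133% of all probes. Under LPS the genotype count was 2 after quantile normalization, 3 after normexp and 2 with a variance trend, and the averaged count was 5 after normexp. Normexp moved the share of rises among the LPS calls in ERRα-/- cells from 58.8% to 74.5%. The causes were not tested.

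With each array left out, the counts ran from 1283 to 2001 and from 1465 to 2211 for LPS in ERRα+/+ and ERRα-/- cells, from 1 to 7 for genotype under PBS, from 0 to 3 under LPS, from 6 to 18 averaged, and stayed at 0 for the interaction.

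Some small LPS differences in ERRα+/+ cells changed sign. After quantile normalization A_30_P01022075 was -0.21, A_30_P01031448 -0.14, A_30_P01025369 -0.1, A_30_P01020276 -0.28, A_30_P01031375 -0.09 and A_30_P01023888 -0.45 (limma adjusted p = 0.0341). After normexp A_30_P01022075 was -0.04, A_30_P01023888 -0.04 and A_30_P01019747 0.05, and on slide 2 alone A_30_P01023888 was -0.01. With each array left out, A_30_P01030669 ran from -0.2 to 0.11, A_30_P01026458 from -0.18 to 0.05, A_30_P01023888 from -0.06 to 0.07, A_30_P01031375 from -0.13 to 0.27 and A_30_P01019747 from -0.33 to 0.04.

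Joining loci within 50 kb, chosen after seeing the data, gave 10 uniformly rising and 6 uniformly falling domains. The planned comparison with the nearest named gene, at 100 and 20 kb, was not run, because the gene table is on another build. Signal near background limits the dim probes: a fitted difference against a group with no array above background is no measured fold.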

Other observations

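Of 25 named noncoding RNA genes listed for background, 18 are on the array and 16 were tested. In ERRα+/+ cells 4 rose and 3 fell with LPS, in ERRα-/- cells 3 rose and 4 fell, and none was called for genotype averaged over treatments. Their median LPS differences were -0.20 and -0.12, beside 0.08 and 0.12 over all probes tested. Mir17hg, the host of a microRNA cluster, rose by 1.48 and 1.92, and Tug1 by 1.32 and 1.23. Malat1, an abundant nuclear RNA, differed by -0.85 in each genotype, Pvt1, a neighbour of Myc, by -1.14 and -1.20 and Mirt1 by -2.12 and -1.64.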
